A study of Mus musculus with 6 samples.

Results

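CD8+ T cells of mouse spleen, described as naive, were compared after 4 h of stimulation through the T cell receptor and CD28 with untreated cells. The comparison rests on 4 of the 6 arrays of the series: untreated and 4 h cells of Nrdp1+/+ (wild-type) mice, and untreated and 4 h cells of Nrdp1-/- mice. The 4 h and untreated array of a genotype form a pair, and the genes described are those that moved alike in both pairs. The titles of the control arrays say only untreated, and none is labelled as cultured for 4 h. Time in culture and stimulation therefore cannot be told apart. The other arrays, 1 of each genotype at 8 h, give no value of the comparison and entered the estimate of the spread, the choice of probe set, the minimum brightness and the test of a genotype difference. The labels give the strain as C57/BL6. Stimulated cells had immobilized anti-CD3 at 5 µg/ml with soluble anti-CD28 at 1 µg/ml, and the treatment field of these samples names anti-CD28 alone. Nrdp1, the product of Rnf41, is a ubiquitin ligase, so the Nrdp1-/- pair is a stimulation of mutant cells and not a second wild-type replicate. The kind of mutation, the age and number of mice and any pooling are not given, so that p-values reflect only how these arrays scatter, which may be technical. Each gene is represented by its brightest probe set that names only that gene, and 10829 of 18193 genes were tested, those whose probe set was as bright as the array median or brighter on 2 or more arrays.

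Antigen receptor and costimulatory signals reach the nucleus through calcium and calcineurin, MAP kinases and the IkB kinase, which act on NFAT, AP-1 and NF-kB factors. Naive CD8+ T cells answer within hours: they transcribe immediate early factors, then cytokines, chemokines and receptors, and they start to build the ribosomes and metabolic enzymes needed before the first division. The same signals also switch on inhibitors of the pathway, and the programme of circulating naive cells is turned down.

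The sequences before the start sites of the genes that rose most are shown because these genes moved together in both pairs and because NFAT and AP-1 are textbook regulators of several of them. Each line gives the 250 bases upstream of the start site in RefSeq annotation of GRCm38.p6, 5′ to 3′ on the gene's strand, for the 6 leading genes for which that table holds an entry. Capitals mark matches, on either strand, to the NFAT core GGAAA or to the AP-1 motif TGANTCA.
Il2 (chr3:37125955-37126204, minus strand): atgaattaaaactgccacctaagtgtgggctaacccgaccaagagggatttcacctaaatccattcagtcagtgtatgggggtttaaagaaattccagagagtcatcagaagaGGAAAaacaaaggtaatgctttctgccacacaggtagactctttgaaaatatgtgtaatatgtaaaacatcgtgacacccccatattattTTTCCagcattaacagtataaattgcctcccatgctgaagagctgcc
Ccl3 (chr11:83649379-83649628, minus strand): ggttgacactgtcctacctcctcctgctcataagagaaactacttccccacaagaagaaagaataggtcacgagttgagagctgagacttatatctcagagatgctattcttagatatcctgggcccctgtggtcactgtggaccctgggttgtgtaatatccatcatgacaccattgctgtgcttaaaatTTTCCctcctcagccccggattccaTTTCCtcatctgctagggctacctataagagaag
Ifng (chr10:118440796-118441045, plus strand): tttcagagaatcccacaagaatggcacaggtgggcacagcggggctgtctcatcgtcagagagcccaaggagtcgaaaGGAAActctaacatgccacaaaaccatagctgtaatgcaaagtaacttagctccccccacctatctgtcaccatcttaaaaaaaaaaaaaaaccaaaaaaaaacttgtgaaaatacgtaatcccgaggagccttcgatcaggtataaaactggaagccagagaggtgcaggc
Csf2 (chr11:54249900-54250149, minus strand): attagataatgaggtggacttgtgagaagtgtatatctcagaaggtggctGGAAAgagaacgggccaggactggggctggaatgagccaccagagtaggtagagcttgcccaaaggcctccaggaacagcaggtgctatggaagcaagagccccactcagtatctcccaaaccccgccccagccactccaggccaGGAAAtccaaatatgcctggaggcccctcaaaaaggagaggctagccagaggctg
Tnfsf14 (chr17:57194182-57194431, minus strand): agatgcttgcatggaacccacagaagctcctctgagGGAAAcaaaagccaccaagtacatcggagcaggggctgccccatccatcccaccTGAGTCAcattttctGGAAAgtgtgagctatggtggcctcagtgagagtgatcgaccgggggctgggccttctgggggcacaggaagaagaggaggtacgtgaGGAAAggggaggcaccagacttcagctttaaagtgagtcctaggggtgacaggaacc
Xcl1 (chr1:164935523-164935772, minus strand): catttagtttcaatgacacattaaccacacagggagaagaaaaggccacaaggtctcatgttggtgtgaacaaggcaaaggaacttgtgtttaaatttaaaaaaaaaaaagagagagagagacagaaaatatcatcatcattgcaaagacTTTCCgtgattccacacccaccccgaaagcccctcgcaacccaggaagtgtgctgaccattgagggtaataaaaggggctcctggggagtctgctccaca
All 6 windows held the NFAT core, and that of Tnfsf14, which encodes the TNF family ligand LIGHT, also held an AP-1 match. So short a core is common: of 8838 tested genes with an entry 54.4% held it, and of 164 genes that rose at least 2-fold in both pairs 62.2% did. The AP-1 motif lay in 4.07% of tested genes, 8.54% of those 164 genes and 6.87% of all 27025 genes of the table. For the STAT motif TTCNNNGAA the shares were 5.89% and 12.8%, with 7.18% over all genes. For the core of the interferon response element they were 2.79% and 6.71%, with 3.04%, and for the kB motif 4.36% and 6.71%, with 3.75%. The Myc E-box CACGTG was about as frequent in these genes (9.76%) as in tested genes (8.57%; 6.05% over all genes). The motif TGACGTCA of CREB was less frequent in the risen genes (1.83%) than in tested genes (2.77%; 1.62% over all genes), as was the CArG box of serum response factor (0.61% and 1.09%; 1.4%). The Egr motif GCGNGGGCG lay in 9.76% of the risen, 10.1% of the fallen and 8.51% of the tested genes (4.65% over all genes). Motifs were searched on both strands, matches to different motifs may overlap, and a match describes letters only.

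The targeted gene Rnf41 read 728 and 528 untreated and 505 and 437 at 4 h and did not change with stimulation beyond the spread (-0.40 ± 0.14); it was lower in Nrdp1-/- cells on both arrays, and where its probe set lies relative to the mutation is not given. The arrays were alike in overall quality. Median signals lay between 61.8 and 66.9 on the 4 arrays, and 3' to 5' ratios of the control probe sets between 0.832 and 0.894 for Gapdh and between 1.39 and 1.53 for beta-actin. The defining genes of CD8+ T cells, among them Cd8a, Cd8b1, Cd3e and Zap70, were above the median on every array in 11 of 11 cases, with a summed signal of 96229 to 102705; 2 of them rose and 1, Thy1, fell. The extraction text of the labels names colon, but of 18 colon epithelium markers 13 to 16 lay below the median on each of these arrays. RNA of other cells was present at both conditions. The summed signal of 20 B cell markers was 40936 untreated and 36835 at 4 h in wild-type cells and 34107 and 36601 in Nrdp1-/- cells, and 0 of 16 tested markers were called. Ighm was the largest term, and the other 19 markers summed to 20583 and 18324 in wild-type cells but only 5332 and 4844 in Nrdp1-/- cells. For 22 myeloid markers the sums were 11963 and 13567 in wild-type and 23390 and 19655 in Nrdp1-/- cells, with Cybb risen and Prtn3 fallen of 17 tested. Ctss was the largest term there, and the other 21 markers summed to 3939 and 4219 in wild-type and 15332 and 10478 in Nrdp1-/- cells, where they were higher at both times and lower at 4 h than untreated. For 9 dendritic cell markers they went from 857 to 1452 and from 1065 to 2039, of which Bst2, an interferon-induced gene, made up the largest part and was the 1 called of 3 tested, with Xcr1 and Siglech below the median on all 4 arrays. Of 7 tested natural killer cell markers Eomes rose and Cd7 fell, and 0 of 6 CD4+ and regulatory T cell, 0 of 4 erythroid and platelet, 0 of 3 colon epithelium and 0 of 2 smooth muscle markers were called. The part of other cells in the changes at 4 h was not tested. MAS5 scales each array to one mean, so a change in total RNA per cell cannot be seen here, and fewer cells of a type cannot be told apart from less RNA per cell.

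**Figure D1:**
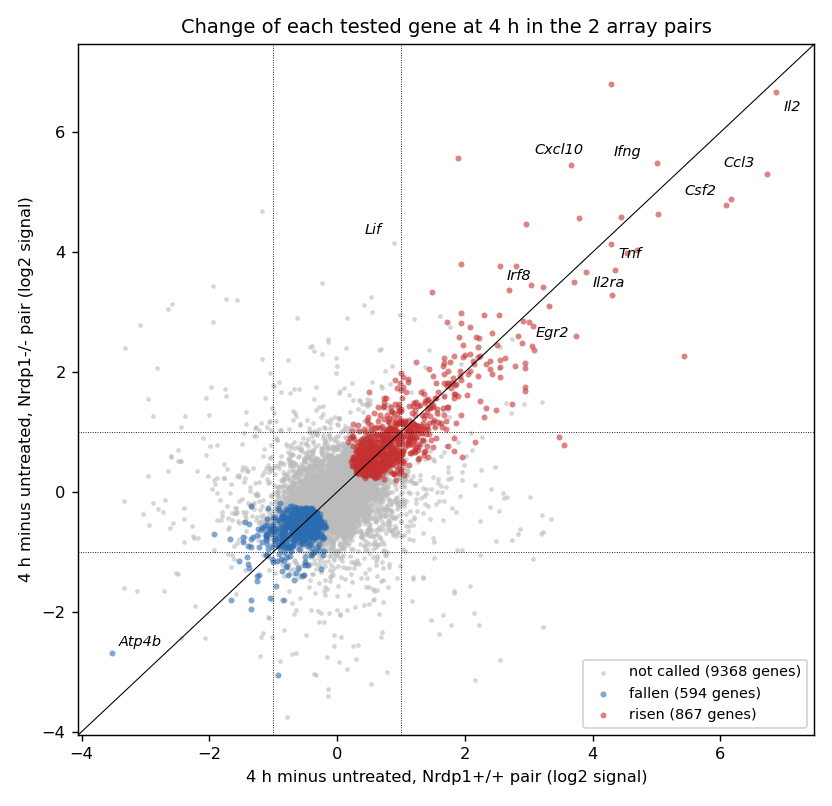
Change from untreated to 4 h (log2 signal) of each of the 10829 tested genes in the Nrdp1+/+ pair (horizontal) and the Nrdp1-/- pair (vertical), coloured by the limma call, with dotted lines at a 2-fold change and a solid line of equal change. Risen genes lie along the line of equal change up to the cytokine genes at the top right, and fallen genes reach less far.

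From untreated to 4 h, transcripts rose further than they fell. In limma at an adjusted p of 0.05, 867 genes rose (8.01% of those tested) and 594 fell (5.49%). All 1461 called genes had the same sign in both pairs, which a call on the mean of both pairs favours. By at least 2-fold in both pairs, 199 genes rose (1.84%) and 15 fell (0.139%), of which 56 and 1 reached 4-fold in both. Of the 56, 20 rose at least 8-fold and 10 at least 16-fold in both pairs. The 199 include genes below the array median on both wild-type arrays, such as Acod1, Clec7a and Ly6i. The median change was 0.72 on the log2 scale over risen genes, -0.54 over fallen genes and -0.05 over all tested genes. Across all genes the changes of the pairs, which share no array, correlated with a Pearson coefficient of 0.479 and a Spearman rank coefficient of 0.455, as a description over genes that are not independent. At the edge of the 2-fold rule, the adhesion receptor gene Icam1 (smaller pair change 1.006) and Tlr6 (1.003) lay just inside, and Ptprs (0.999) just outside. Another 30 genes rose and 24 went down 2-fold in both pairs without passing the test, among them Egr4 (mean 2.36 ± 0.85), which was dim in untreated cells. The counts depend on how the spread is estimated: without the intensity trend 82 genes rose and 4 fell, without the untreated Nrdp1-/- array 573 rose and 215 fell, and centring each array on its median left 387 fallen genes. Without the wild-type or the Nrdp1-/- 8 h array 942 or 941 genes fell. Of the risen genes 31 were below the median on both untreated arrays and could be tested only because they were brighter on stimulated ones. Genes below it on 1 untreated array, such as Ifng and Tnf, also needed a stimulated array to pass and are not in that count.

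**Figure D2:**
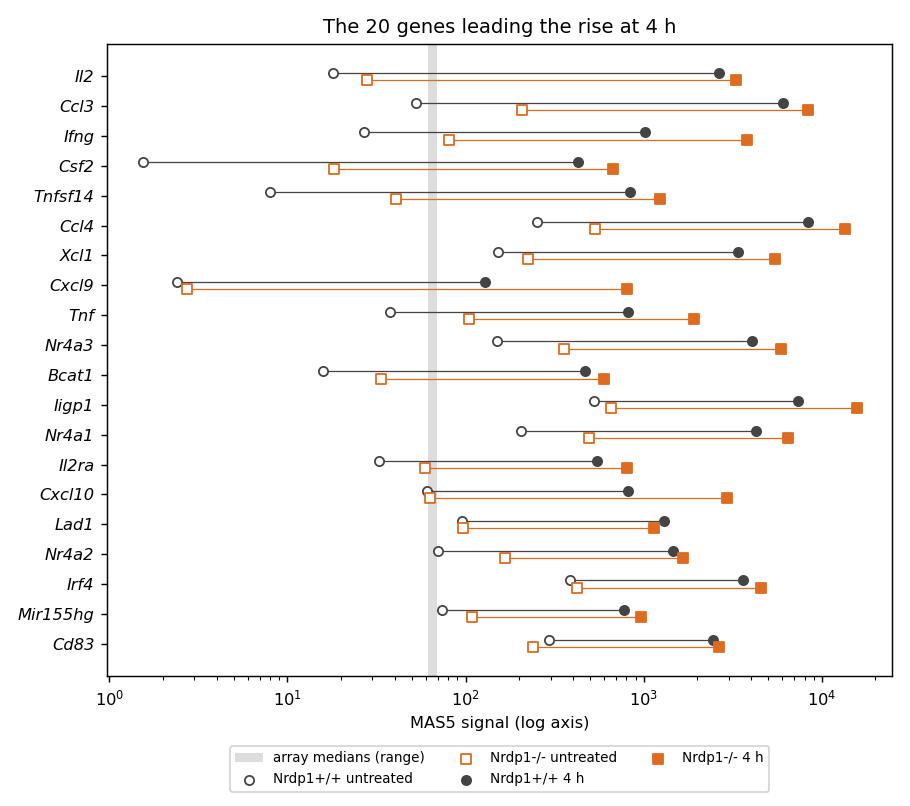
MAS5 signal (log axis) of the 20 genes leading the rise, ranked by the smaller of their 2 pair changes, on the untreated (open) and 4 h (filled) arrays of Nrdp1+/+ (circles) and Nrdp1-/- (squares) cells, with the range of array medians in grey. In all 20 genes both 4 h signals lie above both untreated signals, against 22.5% of all tested genes, and the ranking selects for this. At each time the Nrdp1-/- signal is the higher one in 19 of 20 genes.

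Secreted mediators led the response. In the following, signals are given with the wild-type array first and the Nrdp1-/- array second. Il2, the T cell growth factor, had signals of 18.02 and 28.0 untreated and 2632 and 3289 at 4 h. Both untreated values were below their array medians and both stimulated ones far above, a mean change of 6.77 ± 0.15 (limma, adjusted p = 1.25e-09) or at least 42.4-fold. Ifng, the interferon that activates macrophages and antigen presentation, read 27.1 and 80.4 untreated and 1011 and 3786 at 4 h, and Tnf read 37.7 and 105 untreated and 819.8 and 1919 at 4 h. The arrays of the conditions did not overlap for either gene, with changes of 5.01 and 5.48 for Ifng and 4.29 and 4.14 for Tnf. Csf2, which encodes GM-CSF, rose from 1.54 and 18.4 to 428 and 673 (at least 7.80-fold) and lymphotoxin alpha, Lta, from 274 and 256 to 1293 and 1544. The sixth called cytokine was Il17a (mean 2.38 ± 0.59, at least 1.37-fold), dim in untreated cells. In all 6 of 18 tested cytokine genes rose and 0 fell. Another 9 cytokine genes on the array did not reach the median on enough arrays to be tested. Il2, Csf2 and Il17a lay below the median on both untreated arrays, and Ifng and Tnf on the wild-type one. All of these were tested only because stimulated arrays passed that minimum. The cytokine genes Il1b (0.30 ± 0.49), Il10 (0.38 ± 0.37) and Il6 (2.04 ± 1.04) did not pass.

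Chemokine genes were the next group, with 6 risen and 0 fallen of 12 tested. Another 11 on the array were too dim to be tested. Of the 6, Cxcl9 and Cxcl10 lay below the median on both untreated arrays and Ccl3 on the wild-type one. These were tested only because stimulated arrays passed the minimum. Ccl3 and Ccl4 encode ligands that draw in other leukocytes. The signals of Ccl3 were 52.4 and 207 untreated and 6031 and 8351 at 4 h, and those of Ccl4 were 252 and 536 untreated and 8358 and 13440 at 4 h. Both were already higher in Nrdp1-/- cells before stimulation, and Ccl3 had the smaller change there (5.30 against 6.73). Xcl1, a lymphotactin that attracts cross-presenting dendritic cells, read 152 and 224 untreated and 3397 and 5453 at 4 h, with nearly equal changes of 4.44 and 4.58. Cxcl9 and Cxcl10, interferon-induced ligands of Cxcr3, were dim in untreated cells. Cxcl9 read 2.40 and 2.74 untreated and 129 and 803 at 4 h (at least 4.73-fold up), and Cxcl10 read 60.8 and 62.8 untreated and 821 and 2941 at 4 h (at least 22.4-fold). Both 4 h values of each gene exceeded both untreated values, and the log2 change was larger in the Nrdp1-/- pair, by 2.52 for Cxcl9 and 1.79 for Cxcl10. A test of the genotype difference over 4 h and 8 h together called Cxcl10 (limma, adjusted p = 2.90e-05) and not Cxcl9 (adjusted p = 0.859). Ccl9 rose less (0.97 ± 0.16), and Ccl5, a chemokine of memory cells, read 15690 and 20037 untreated and 13718 and 20912 at 4 h and did not pass (-0.07 ± 0.10).

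The ligands and receptors of the TNF family rose in part. Tnfsf14 read 7.94 and 40.5 untreated and 839.6 and 1240 at 4 h, at least 14.8-fold up. Tnfsf11, which encodes RANKL, also started below the median and read 11.5 and 52.98 untreated and 681 and 271 at 4 h, at least 6.26-fold up. Fasl, the death ligand of cytotoxic cells, rose by 0.83 ± 0.21. With Tnf and Lta these were 5 risen of 10 tested ligands, of which Tnfsf14, Tnfsf11 and Tnf were tested only because stimulated arrays passed the minimum. Among 12 tested receptors 4 rose and 0 fell: Tnfrsf9, the costimulator 4-1BB (84.8 and 133 untreated and 743 and 926 at 4 h), Fas (0.95 ± 0.15), Tnfrsf18, which encodes GITR (0.88 ± 0.10), and Tnfrsf1b (0.71 ± 0.15). Tnfrsf4, which encodes OX40, did not pass (-0.10 ± 0.18), nor did Cd27 (0.04 ± 0.10).

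Transcription factors of the immediate early response were higher at 4 h than in untreated cells. All 3 Nr4a orphan receptors, which are induced by antigen receptor signals, rose: Nr4a1 read 206 and 491 untreated and 4291 and 6434 at 4 h, Nr4a2 69.8 and 166 untreated and 1455 and 1654 at 4 h and Nr4a3 151 and 356 untreated and 4033 and 5888 at 4 h. No untreated value of these genes reached a 4 h value, and each change was larger in the wild-type pair, whose untreated values were lower. Egr1 read 1178 and 1785 untreated and 5540 and 8583 at 4 h, with pair changes of 2.23 and 2.26. Egr2 and Egr3, which raise inhibitors of the receptor pathway, changed by 2.92 ± 0.15 and 2.54 ± 0.15, and the Egr corepressor Nab2 by 0.80 ± 0.17, which made 4 risen of 6 tested Egr and Nab genes. Of 14 tested AP-1 and CREB/ATF genes 8 rose and 0 fell. Fos read 128 and 433 untreated and 906 and 1875 at 4 h and Jun read 120.4 and 242 untreated and 438 and 727 at 4 h. Junb (0.90 ± 0.14), Fosl2 (0.88 ± 0.18), Batf (0.60 ± 0.12), Crem (0.62 ± 0.17), Maff (1.04 ± 0.25) and Atf3 (1.47 ± 0.25) were the others, while Jund (-0.06 ± 0.11) and Creb1 (-0.05 ± 0.13) did not pass. Myc, the driver of growth and ribosome synthesis, read 1117 and 1199 untreated and 4473 and 5854 at 4 h and changed almost equally in the pairs (2.00 and 2.28). Its antagonist Mxd4 fell (-0.72 ± 0.13), and the other 9 tested genes of the Myc and Max network did not pass.

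Factors of effector differentiation and of the interferon and NF-kB pathways followed. Irf4, the factor that scales with receptor strength, read 384 and 422 untreated and 3610 and 4535 at 4 h, with changes of 3.22 and 3.41. Irf8 read 193 and 163 untreated and 1147 and 2286 at 4 h and Irf1 4192 and 4656 untreated and 14659 and 16358 at 4 h, and Irf9 (1.14 ± 0.12) and Irf2 (0.46 ± 0.11) rose less. These were 5 risen of 8 tested interferon regulatory factors, with Irf7 (0.29 ± 0.20) and Irf3 (-0.01 ± 0.11) not passing. Of 21 tested factors of effector and memory cells 7 rose and 2 fell. Bhlhe40 changed by 2.19 ± 0.15, Bcl6 by 1.56 ± 0.16, Eomes by 0.97 ± 0.14, Gfi1 by 0.89 ± 0.12 and Id3 by 0.73 ± 0.13. Lef1 and Foxo1, factors of naive cells, fell (-0.38 ± 0.09 and -0.43 ± 0.11). Tbx21, which encodes T-bet, did not pass: it read 399.7 and 564 untreated and 402 and 1077 at 4 h, flat in the wild-type pair and higher in the Nrdp1-/- pair. Of 15 tested NF-kB subunits and IkB proteins 10 rose (66.7%) and 0 fell, against 8.01% and 5.49% over all genes. All 15 had the same sign in both pairs, as did 68.1% of all tested genes. Relb (1.43 ± 0.11), Nfkb2 (1.05 ± 0.14) and Rel (1.03 ± 0.20) rose, as did the inhibitors Nfkbia (0.63 ± 0.10) and Tnfaip3 (0.99 ± 0.10) and the nuclear IkB proteins Nfkbid (2.42 ± 0.15) and Bcl3 (1.97 ± 0.14). Rela did not pass (0.24 ± 0.11). The upstream windows of 6 of the 12 tested genes of this list in the promoter table held the kB motif, against 4.36% of all tested genes. Without the untreated Nrdp1-/- array 0 of the effector and memory factors fell.

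Some inhibitors of the receptor pathway rose and others fell. Of 14 tested MAP kinase phosphatase, Sprouty and Spred genes Spry1 (83.2 and 95.1 untreated and 456 and 407 at 4 h), Dusp5 (1.10 ± 0.21), Spred1 (0.98 ± 0.29) and Dusp2 (0.88 ± 0.11) rose and 0 fell. Of 8 tested SOCS genes, whose products block cytokine receptors, Cish (1.68 ± 0.20), Socs1 (0.69 ± 0.20) and Socs3 (0.54 ± 0.12) rose. Phosphatases, adaptors and diacylglycerol kinases went the other way more often, with 2 risen and 7 fallen of 22. Ptpn6, which encodes the phosphatase SHP-1, rose (1.18 ± 0.13), and Ubash3a (-0.59 ± 0.15), Sla2 (-0.81 ± 0.14), Inpp5d, which encodes SHIP-1 (-0.50 ± 0.14), and Dgka (-0.43 ± 0.11) fell. Of 18 ubiquitin ligases and editors Usp18 rose (1.17 ± 0.17), a share of 5.56%, and 2 fell (11.1%), against 8.01% and 5.49% over all genes. Of 7 RGS genes Rgs16 rose (1.75 ± 0.21). In the NFAT list 0 of 13 genes rose, and Nfatc2 (-0.65 ± 0.14), Nfatc3 (-0.38 ± 0.11) and Rcan3 (-0.52 ± 0.12) fell by their brightest probe sets. A dimmer probe set of Nfatc2 changed by 0.51 and 1.70, the opposite direction. For Nfatc1, which has an inducible short isoform, the brightest probe set changed by -0.13 ± 0.10 and did not pass, whereas 4 dimmer ones were higher in both pairs, the largest by 0.93 and 0.90. Without the untreated Nrdp1-/- array 3 of the phosphatases, adaptors and kinases and 1 of the NFAT genes fell.

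Cytokine receptors and surface molecules of activated T cells rose in part. Il2ra, the high-affinity IL-2 receptor subunit, read 32.5 and 59.4 untreated and 545 and 804 at 4 h, a rise of at least 9.60-fold, and Il15ra (1.34 ± 0.20) and Il12rb1 (1.04 ± 0.31) rose as well. The beta chain Il2rb (0.29 ± 0.12) and the IL-7 receptor gene Il7r (-0.09 ± 0.10) did not pass, and Il6ra fell (-0.80 ± 0.11). In all 6 of 32 tested cytokine receptor and Jak-Stat genes rose (18.8%) and 2 fell (6.25%), against 8.01% and 5.49% over all genes. Cd69, which retains cells in lymphoid tissue, read 637 and 1048 untreated and 5458 and 5437 at 4 h, and Cd83 read 296 and 239 untreated and 2465 and 2662 at 4 h. Of 22 activation molecules 10 rose (45.5%) and 1 fell (4.55%). The transferrin receptor Tfrc (1.07 ± 0.10), Slamf1 (2.01 ± 0.13), Crtam (1.10 ± 0.15) and Icos (0.45 ± 0.10) were among the risen. Of 14 inhibitory receptors and ligands 5 rose (35.7%) and 0 fell. Cd274, which encodes PD-L1, read 487 and 562 untreated and 3427 and 7709 at 4 h, its relative Pdcd1lg2 rose by 1.47 ± 0.30, and the receptors Pdcd1, Cd160 and Btla by 1.30 ± 0.32, 2.21 ± 0.20 and 0.48 ± 0.10. Ctla4 read 772 and 691 untreated and 847 and 748 at 4 h and did not pass. Havcr2, which encodes TIM-3, was dim in untreated cells and did not pass in spite of its mean of 2.27 ± 0.81. Without the untreated Nrdp1-/- array 2 of the 14 inhibitory genes rose.

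Granule genes did not move together. Gzmb, the granzyme of freshly activated cells, read 112 and 223 untreated and 367 and 795 at 4 h, both stimulated values above both untreated ones. Serpinb9, which protects killer cells from granzyme B, rose by 1.22 ± 0.15, and Stx11 by 1.15 ± 0.20. Gzmk fell (-0.54 ± 0.12), and Prf1, the perforin gene (369.9 and 549 untreated and 240.0 and 491 at 4 h), and Gzma (370.5 and 907 untreated and 223 and 708 at 4 h) were lower at 4 h in both pairs without passing (-0.39 ± 0.17 and -0.54 ± 0.18). Of 19 tested granule genes 6 rose and 2 fell, or 3 and 1 without the untreated Nrdp1-/- array. Of 9 killer lectin-like receptors only Klrd1 was called (fallen, -0.41 ± 0.10), and of 11 genes that mark memory-like CD8+ T cells, whose summed signal was 54721 and 59771 untreated and 47854 and 56029 at 4 h, Eomes rose and Cxcr3 and Klrd1 fell. On every array 0 of these 11 genes lay below the median, and Klrd1 read 23185 and 20989 untreated. The cells are described as naive, and whether all of them were was not tested.

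**Figure D3:**
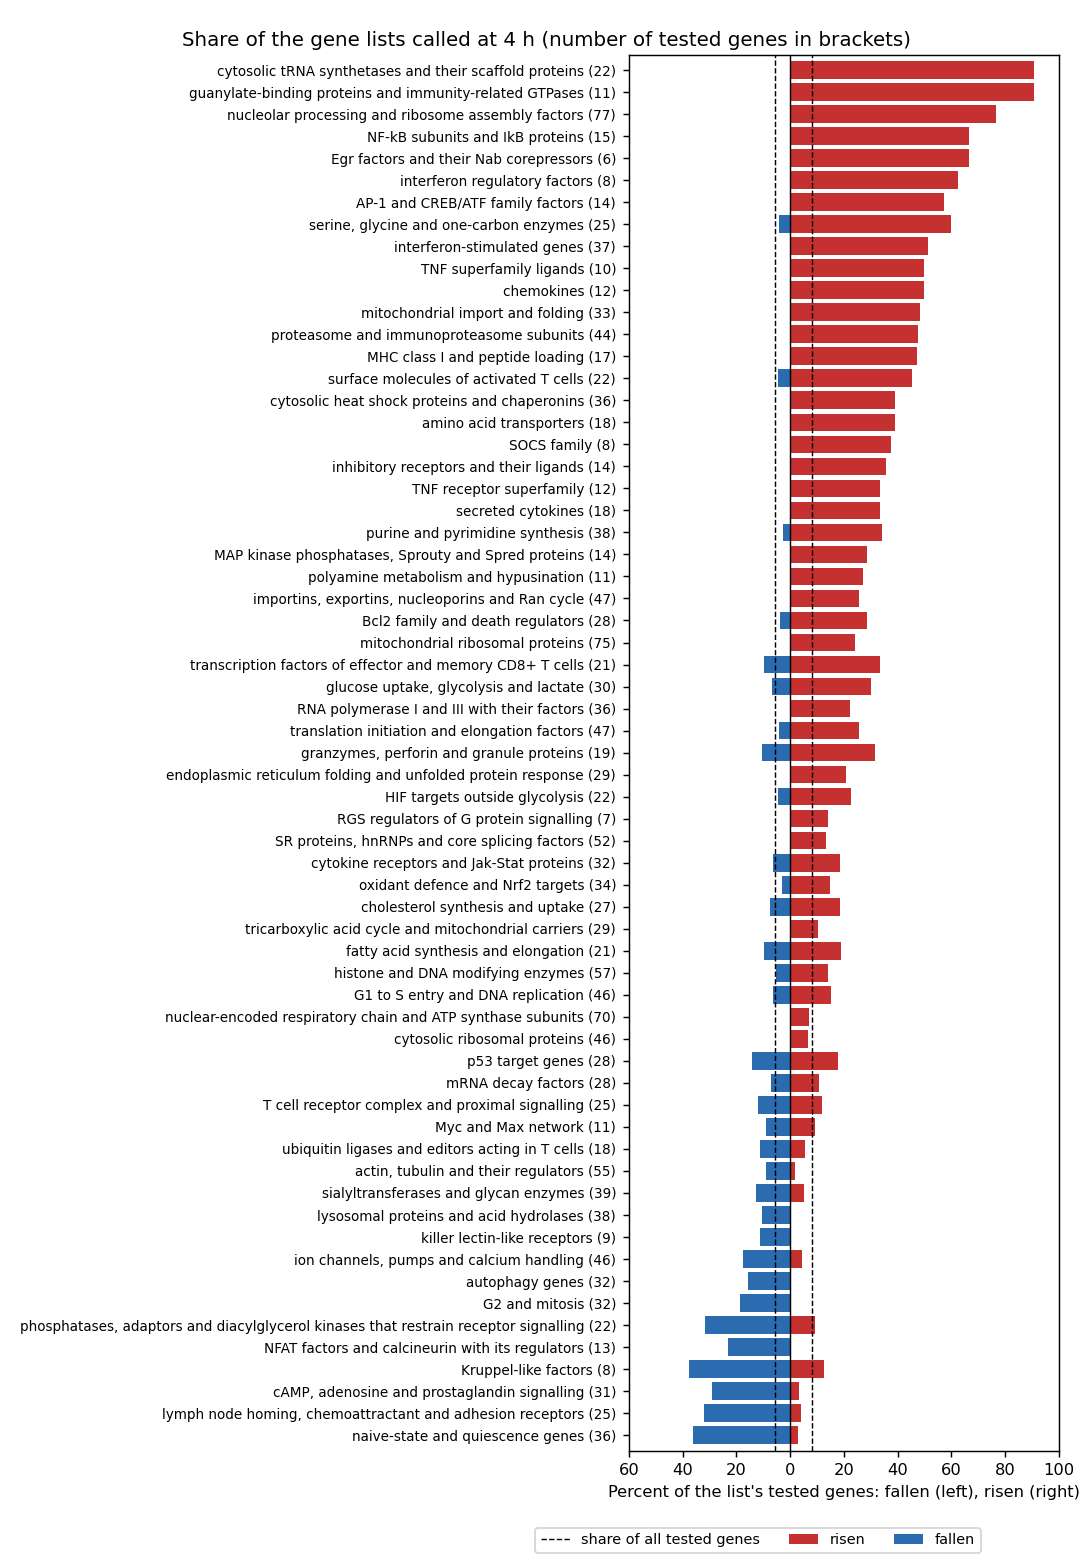
Percent of the tested genes of each plotted list that were called risen (right) or fallen (left) at 4 h, with the number of tested genes in brackets and dashed lines at the shares over all tested genes (8.01% and 5.49%). tRNA synthetases, guanylate-binding proteins and nucleolar factors stand at the top, and naive-state, homing and cAMP genes at the bottom.

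The machinery that makes ribosomes rose broadly. Of 77 tested nucleolar processing and assembly factors 59 rose and 0 fell, and 18 rose at least 2-fold in both pairs. The median change was 0.73 over the list (0.79 in the wild-type and 0.70 in the Nrdp1-/- pair), against -0.05 over all tested genes. Mdn1, a giant ATPase that strips assembly factors from the large subunit, read 842 and 859 untreated and 3242 and 3155 at 4 h. Grwd1 (1.86 ± 0.12), Rrp12 (1.55 ± 0.24), Nolc1 (1.53 ± 0.13) and Utp20 (1.44 ± 0.12) rose as well. Of the abundant nucleolar proteins Ncl rose slightly (0.34 ± 0.09) and Npm1 did not pass (0.18 ± 0.10). Nat10 rose by its brightest probe set (1.47 ± 0.16) but took the opposite sign, without a call, when its probe sets were averaged. Polymerase subunits rose in part, 8 of 36 with 0 fallen: Polr1b (1.61 ± 0.19) and Polr1a (1.16 ± 0.20) of polymerase I led, and the initiation factor Rrn3 rose by 0.49 ± 0.13. Transcripts of the ribosomal proteins themselves did not follow. Of 46 tested cytosolic ribosomal protein genes 3 rose and 0 fell, a share close to the 8.01% over all genes, with a median change of 0.06. Another 35 ribosomal protein genes had no probe set that names them alone. Mitochondrial ribosomal proteins lay between, with 18 of 75 risen, 0 fallen and a median of 0.22, led by Mrps28 (1.18 ± 0.13). The Myc E-box lay upstream of 5 of 66 tested nucleolar genes in the promoter table (7.58%), near its share in all tested genes. These calls lean on the intensity trend of the fit: without it 4 nucleolar genes and 0 polymerase or ribosomal protein genes were called, and without the untreated Nrdp1-/- array 46 nucleolar, 5 polymerase and 5 mitochondrial ribosomal protein genes rose.

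The tRNA synthetases rose as broadly, and other translation and protein folding genes rose in part. Of 22 tested tRNA synthetases and scaffold proteins 20 rose and 0 fell, with a median of 0.81. Wars (1.70 ± 0.21), which interferon also induces, Cars (1.49 ± 0.17), Aars (1.37 ± 0.13) and Mars1 (1.06 ± 0.11) led, and Qars (0.02 ± 0.14) and Aimp1 (0.00 ± 0.11) were the ones not called. Of 47 initiation and elongation factors 12 rose and 2 fell. The cap-binding protein Eif4e (0.84 ± 0.11), its inhibitor Eif4ebp1 (1.23 ± 0.14) and the helicase Eif4a1 (0.66 ± 0.09) rose, while Pdcd4, an inhibitor of that helicase, fell (-0.47 ± 0.11), as did the kinase Eif2ak3 (-0.61 ± 0.11). Elongation factors Eef1a1 (0.05 ± 0.11) and Eef2 (0.01 ± 0.10) did not pass. The proteasome list held 21 risen and 0 fallen of 44, each with a mean below 2-fold, with Psme3 (0.95 ± 0.15) at the top and the inducible subunits Psmb9 (0.65 ± 0.14) and Psmb10 (0.72 ± 0.17) after it. Cytosolic chaperones held 14 risen and 0 fallen of 36, from Cct3 (0.71 ± 0.09) and Hsph1 (0.67 ± 0.11) down to Hspa14 (0.37 ± 0.11). In the endoplasmic reticulum Hspa5 (0.70 ± 0.10) and Chac1 (1.22 ± 0.23) rose among 6 of 29, while Xbp1 (-0.36 ± 0.11) and Ddit3 (0.06 ± 0.11) did not pass. Of 47 nuclear transport genes 12 rose and 0 fell, led by the importins Ipo4 (1.37 ± 0.15) and Ipo5 (1.30 ± 0.13) and by Ranbp1 (1.12 ± 0.11). Of 52 splicing genes 7 rose, led by Sf3b3 (0.54 ± 0.10), with a median of 0.15. Without the intensity trend 0 genes of these lists were called, and without the untreated Nrdp1-/- array 15 tRNA synthetase, 5 proteasome, 4 chaperone, 2 endoplasmic reticulum and 1 splicing gene rose. Of 28 mRNA decay factors 3 rose (10.7%) and 2 fell (7.14%), near the 8.01% and 5.49% over all genes.

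**Figure D4:**
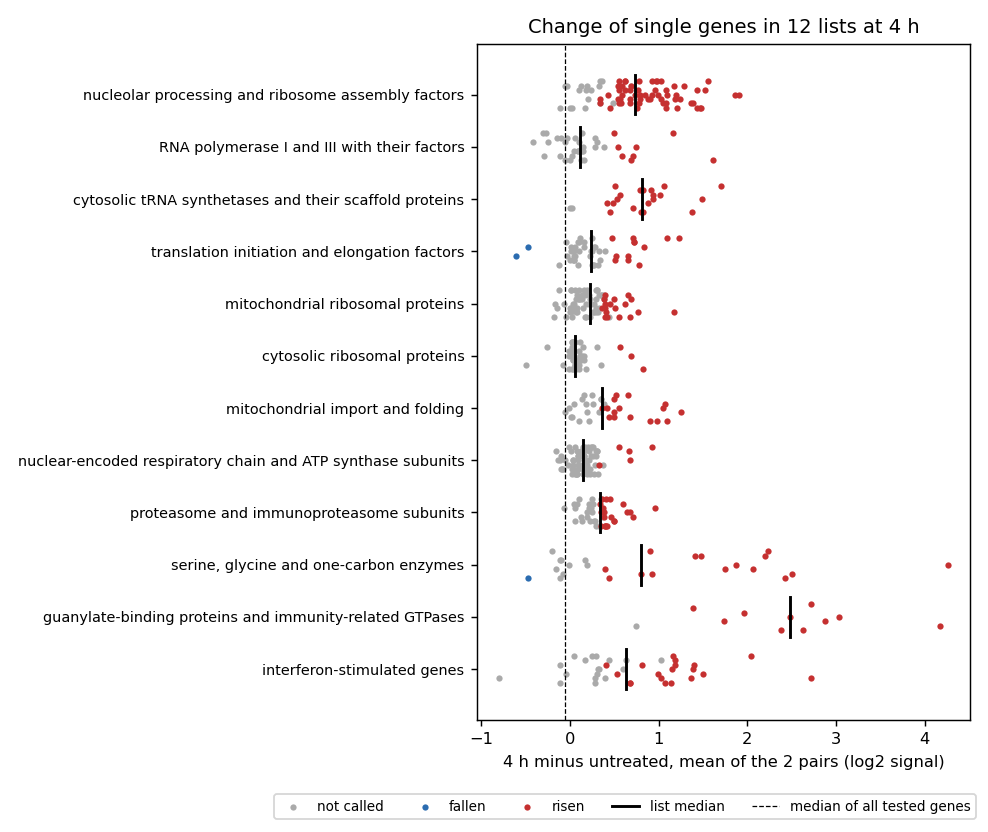
Mean change at 4 h (log2 signal, mean of both pairs) of each tested gene in 12 lists, coloured by the limma call, with a bar at the list's median and a dashed line at the median of all tested genes. Nucleolar factors and tRNA synthetases lie almost wholly to the right of that line, whereas ribosomal protein and respiratory chain genes gather near it.

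Biosynthetic pathways rose at distinct steps. Of 25 tested serine, glycine and one-carbon genes 15 rose and 1 fell. The serine branch Phgdh (1.47 ± 0.11), Psat1 (2.23 ± 0.14) and Psph (0.44 ± 0.13) rose, as did Shmt2 (2.07 ± 0.14) and Mthfd2 (365 and 569 untreated and 2283 and 2692 at 4 h), mitochondrial enzymes on the path from serine to formate, and their cytosolic counterparts Shmt1 (2.50 ± 0.21) and Mthfd1 (1.41 ± 0.12). Bcat1, the cytosolic branched-chain aminotransferase, read 15.9 and 33.7 untreated and 468 and 602 at 4 h, at least 7.71-fold up from dim levels, and Asns, asparagine synthetase, changed by 1.74 ± 0.13. Glul, glutamine synthetase, was the fallen gene (-0.47 ± 0.12). Amino acid transporters held 7 risen and 0 fallen of 18. Slc7a5, the carrier of large neutral amino acids, read 436 and 758 untreated and 3664 and 4126 at 4 h, its partner Slc3a2 changed by 0.78 ± 0.11, the arginine carrier Slc7a1 by 1.55 ± 0.11 and the glutamine carrier Slc1a5 by 0.95 ± 0.12. The folate carrier gene Slc19a1 stands in no list and read 569 and 560.2 untreated and 1962 and 1874 at 4 h. Purine and pyrimidine synthesis held 13 risen and 1 fallen of 38. Cad, which starts pyrimidine synthesis (1.21 ± 0.15), Umps, which ends it in UMP (0.59 ± 0.13), and the CTP synthetase gene Ctps (1.81 ± 0.17) rose, with Nme1 (2.10 ± 0.36) and the purine genes Gart (0.90 ± 0.16) and Pfas (0.74 ± 0.14). The ribonucleotide reductase genes Rrm1 (0.15 ± 0.12) and Rrm2 (-0.54 ± 0.16) did not pass, and the salvage kinase Dck fell (-0.50 ± 0.12). Of 11 polyamine genes 3 rose: Odc1, ornithine decarboxylase (2422 and 1875 untreated and 6309 and 5376 at 4 h), Srm, spermidine synthase (606 and 633 untreated and 2662 and 2896 at 4 h), and Mtap (0.68 ± 0.11). Without the untreated Nrdp1-/- array 8 purine and pyrimidine and 4 amino acid transporter genes rose.

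Energy metabolism moved less. Of 30 tested glycolysis genes 9 rose and 2 fell, with a median of 0.03. Hk2, the inducible hexokinase, read 144 and 135 untreated and 652 and 609.8 at 4 h and stood apart from the next gene, the lactate carrier Slc16a1 (0.78 ± 0.11). Tpi1 (0.56 ± 0.13), Pgam1 (0.46 ± 0.12) and Ldha (0.36 ± 0.10) rose by less, the glucose carrier gene Slc2a1 (-0.24 ± 0.13) did not pass, and Pdk1 fell (-0.44 ± 0.10). The tricarboxylic acid cycle held 3 risen of 29 (10.3%) and the respiratory chain 5 of 70 (7.14%), led by Uqcrq (0.93 ± 0.11) and Cycs (0.67 ± 0.12), with 0 fallen in either, shares near the 8.01% over all genes. Mitochondrial import and folding held 16 risen and 0 fallen of 33. Timm8a1 (1.25 ± 0.14), C1qbp (1.09 ± 0.10), the chaperonin Hspd1 (1.07 ± 0.10) and Hspa9 (1.05 ± 0.13) each rose about 2-fold. Of 27 cholesterol genes 5 rose and 2 fell. Idi1 (1.17 ± 0.12) and Sqle (0.90 ± 0.17) rose, and Mylip, a ligase that removes the LDL receptor, fell (-0.61 ± 0.11). In fatty acid synthesis Acaca (0.75 ± 0.17) and Fasn (0.51 ± 0.13) rose among 4 of 21, while Elovl7, an elongase, fell. Of 22 HIF targets outside glycolysis 5 rose (22.7%) and 1 fell (4.55%), against 8.01% and 5.49% over all genes. Of 34 oxidant defence genes 5 rose (14.7%) and 1 fell (2.94%). Without the untreated Nrdp1-/- array 10 import, 4 glycolysis and 1 tricarboxylic acid cycle gene rose, and without the intensity trend 0 of these did.

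Interferon-induced genes formed another block, and the labels name no added interferon. Of 11 tested guanylate-binding proteins and immunity-related GTPases 10 rose, all by at least 2-fold in both pairs, with a median of 2.48. Iigp1, a GTPase that attacks pathogen vacuoles, read 525 and 659 untreated and 7315 and 15708 at 4 h, Irgm1 read 774 and 1022 untreated and 5838 and 7393 at 4 h and Gbp2 read 2040 and 2540 untreated and 10102 and 19612 at 4 h. The eleventh, Gbp2b, read 28.9 and 884 untreated and 4.18 and 9598 at 4 h: both wild-type values lay below the array medians, and the Nrdp1-/- value was higher at 4 h. Of 37 interferon-stimulated genes 19 rose and 0 fell. Their median was larger in the Nrdp1-/- pair (1.02) than in the wild-type pair (0.37), a difference that was not tested as a list. Ifi47 (2.72 ± 0.16), Rtp4 (2.05 ± 0.13) and Zbp1 (1.37 ± 0.15) rose, and of the genes that type I interferon induces Xaf1 (1.07 ± 0.16), Ifit3 (1.19 ± 0.14), Usp18 and Ifit1 (1.15 ± 0.20) rose, whereas Mx1 (0.32 ± 0.32), Oas2 (0.05 ± 0.24) and Ifit2 (-0.11 ± 0.12) did not pass. Of 17 genes of class I presentation 8 rose, among them Erap1 (0.97 ± 0.12), Tapbp (0.73 ± 0.10) and the activator Nlrc5 (0.87 ± 0.13), while B2m (0.14 ± 0.11) and H2-K1 (0.10 ± 0.12) did not pass. Without the intensity trend 7 guanylate-binding and immunity-related GTPase, 2 interferon-stimulated and 0 class I genes rose. The core of the interferon response element lay in the upstream window of 7 of the 8 tested guanylate-binding and immunity-related GTPase genes that the promoter table holds, against 2.79% of all tested genes, and the STAT motif in 3 of 8. The dendritic cell sums given above also rose, mostly through Bst2, which is itself one of the interferon-stimulated genes. The other 8 dendritic cell markers went from 336 to 453 in wild-type and from 338 to 446 in Nrdp1-/- cells. Myeloid markers other than Ctss were higher in Nrdp1-/- than in wild-type cells and went down there, from 15332 to 10478. The part of dendritic and myeloid cells was not tested.

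Some regulators of G1 had risen at 4 h, and 0 of the tested mitotic genes had. Of 46 genes of the G1 and S phases 7 rose (15.2%) and 3 fell (6.52%), against 8.01% risen and 5.49% fallen over all genes. Cdk6 (1.03 ± 0.13), Cdk4 (0.49 ± 0.12) and Ccnd2, the D-type cyclin (5057 and 6795 untreated and 9669 and 13649 at 4 h), rose, and so did the inhibitor Cdkn1a (1.72 ± 0.21) and the replication factor gene Rfc1 (0.70 ± 0.12). None of the replication helicase genes Mcm2 (0.08 ± 0.14) to Mcm7 (-0.11 ± 0.09) passed, nor did Pcna (0.30 ± 0.09), and Ccne1 (-0.55 ± 0.16) and Rb1 (-0.48 ± 0.11) fell. Of 32 genes of G2 and mitosis 0 rose and 6 fell (18.8%), among them Kif23 (-0.92 ± 0.13), Kif22 (-1.03 ± 0.15) and Plk1 (-0.91 ± 0.22). Mki67 (-0.12 ± 0.17) and Top2a (0.08 ± 0.15) did not pass. Of 28 Bcl2 family and death regulators 8 rose (28.6%) and 1 fell (3.57%). The survival genes Pim2 (1090 and 1140 untreated and 4282 and 5453 at 4 h), Pim1 (0.82 ± 0.11), Pim3 (0.75 ± 0.15), Bcl2l1 (0.99 ± 0.16) and Birc3 (0.58 ± 0.11) rose, and so did the death genes Bid (0.81 ± 0.16) and Bcl2l11 (0.51 ± 0.10), while Bad fell (-0.84 ± 0.15). Bcl2 (-0.06 ± 0.10) and Mcl1 (0.00 ± 0.10) did not pass. Of 28 p53 targets 5 rose (17.9%) and 4 fell (14.3%). The stress genes Gadd45b (1.93 ± 0.12) and Gadd45g (2.29 ± 0.27) rose, whereas Mdm2 (-0.31 ± 0.12) and Ccng1 (0.12 ± 0.10) did not pass and Apaf1 fell (-0.52 ± 0.12). Without the intensity trend 1 G1 and S, 1 Bcl2 family and 2 p53 genes rose, and 0 genes of these lists fell.

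**Figure D5:**
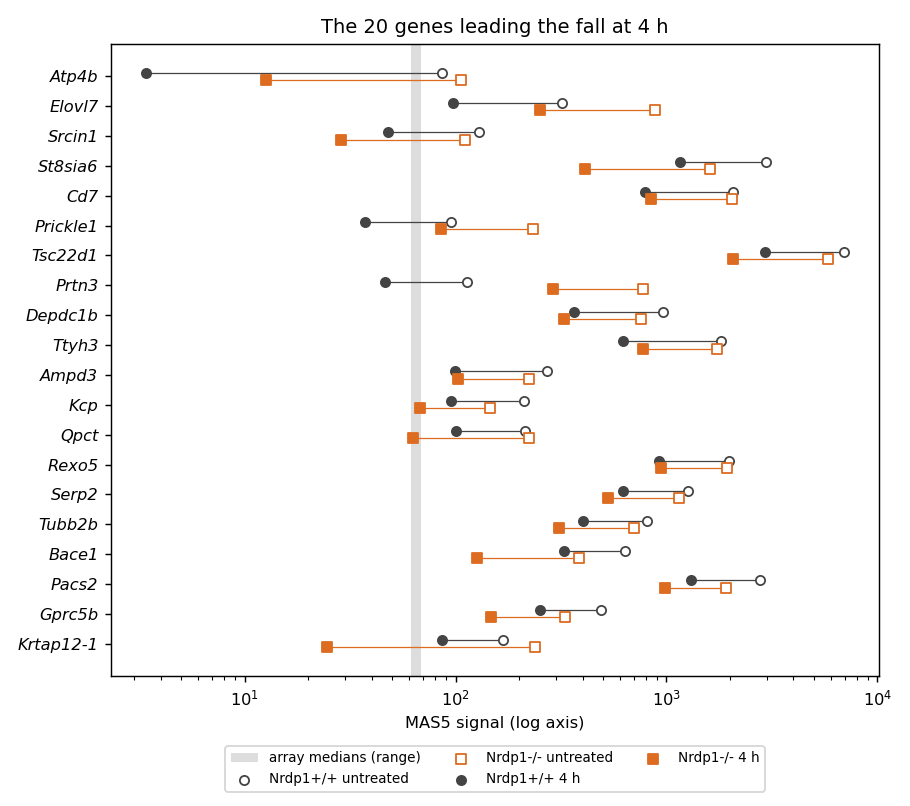
MAS5 signal (log axis) of the 20 genes leading the fall, ranked by the smaller of their 2 pair changes, with symbols as in the plot of the risen genes and the range of array medians in grey. Both 4 h signals lie below both untreated signals in 19 of 20 genes, the exception being Prtn3, against 29.0% of all tested genes. The ranking selects for this, and several signals lie at or below the medians.

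Falls were shallower, and few reached 2-fold in both pairs. Tsc22d1, a leucine zipper protein of resting cells, read 6943 and 5813 untreated and 2921 and 2064 at 4 h, and 2 dimmer probe sets fell by a similar amount in both pairs (means of -1.31 and -1.16). St8sia6, a sialyltransferase, read 2963 and 1606 untreated and 1161 and 411 at 4 h, and Cd7, a receptor of T and natural killer cells, read 2075 and 2041 untreated and 791 and 847 at 4 h. In each of these genes the 4 arrays separated by condition. Elovl7 read 320.2 and 885 untreated and 97.7 and 251 at 4 h: the 4 h value of Nrdp1-/- cells lay only a little under the untreated wild-type value, yet the pairs changed alike (-1.67 and -1.80). Ttyh3 (-1.34 ± 0.13), Depdc1b (-1.29 ± 0.15), the AMP deaminase gene Ampd3 (-1.25 ± 0.30), the exonuclease gene Rexo5 (-1.08 ± 0.12) and Serp2 (-1.07 ± 0.14) were bright enough to be measured on all 4 arrays, and the beta-tubulin gene Tubb2b lay just outside the 2-fold rule (-0.9996 and -1.17). Atp4b had the largest fall, from 86.4 and 106 to 3.40 and 12.6, but it started near the array medians and ended below them, so the measured fall is at least 1.46-fold. Prtn3, a protease of neutrophil precursors, read 113 and 771 untreated and 46.1 and 291 at 4 h, and its level thus differed more between genotypes than with time. The neutrophil genes Mpo (-1.20 ± 0.39) and Elane (-1.38 ± 0.49) were lower as well without passing, and the myeloid sums are given above.

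Some genes of naive and resting cells fell. Of 36 tested genes of this list 13 fell and 1 rose, with a median of -0.28, against 5.49% fallen over all genes; 5 fell without the untreated Nrdp1-/- array and 1 without the intensity trend. Besides Tsc22d1 these included Foxo4 (-0.90 ± 0.24), the glucocorticoid-induced Tsc22d3 (-0.69 ± 0.12), the PI3 kinase inhibitor Pik3ip1 (-0.48 ± 0.10), Usp28 (-0.62 ± 0.11) and Pdk1, and Ddit4 rose (0.41 ± 0.12). Tob1, an antiproliferative protein, fell by its brightest probe set (-0.63 ± 0.12) and took the opposite sign, without a call, when probe sets were averaged. Of 8 Kruppel-like factors Klf6 (-0.61 ± 0.10), Klf3 (-0.56 ± 0.11) and Klf7 (-0.41 ± 0.10) fell and Klf9 rose (0.63 ± 0.13), while Klf2, the keeper of naive T cell trafficking, read 14707 and 14706 untreated and 13066 and 13519 at 4 h and did not pass (-0.15 ± 0.10). Of 25 homing and adhesion genes 8 fell and Icam1 rose. S1pr1, the receptor that lets lymphocytes leave lymph nodes, read 2961 and 2161 untreated and 1970 and 1376 at 4 h, and the integrin genes Itga4 (-0.59 ± 0.11) and Itgae (-0.61 ± 0.11), Cxcr3 (-0.47 ± 0.11) and Gpr183 (-0.56 ± 0.11) fell, whereas Ccr7 (-0.27 ± 0.10) did not pass.

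Some signalling genes outside the antigen receptor core fell. Of 31 cAMP, adenosine and prostaglandin genes 9 fell and 1 rose, with a median of -0.29. The cyclases Adcy7 (-0.61 ± 0.09) and Adcy6 (-0.70 ± 0.14), the phosphodiesterases Pde2a (-0.69 ± 0.12), Pde4d (-0.53 ± 0.12) and Pde7a (-0.56 ± 0.11) and the arrestin Arrb1 (-0.65 ± 0.14) fell, so that enzymes making and degrading cAMP fell together. Rasgrp2, an activator of Rap1 and integrins, read 1711 and 1551 untreated and 872 and 893 at 4 h, and Dock2 (-0.41 ± 0.10), Dock8 (-0.42 ± 0.11) and Rhoh (-0.50 ± 0.12) fell too. Of 46 ion channel, pump and calcium genes 8 fell and 2 rose: Camk2d (-0.82 ± 0.16), Camk4 (-0.49 ± 0.12), the calcium sensor Stim1 (-0.50 ± 0.12) and the inositol trisphosphate receptor genes Itpr2 (-0.46 ± 0.11) and Itpr3 (-0.45 ± 0.12) fell, and Clic4 rose (1.91 ± 0.13). Of 25 genes of the receptor complex and proximal signalling 3 rose and 3 fell. The kinase Zap70 read 1366 and 1350 untreated and 2275 and 1925 at 4 h and rose by 0.62 ± 0.12, as did the inhibitory receptors Cd5 (0.61 ± 0.10) and Cd6 (0.57 ± 0.10). Themis (-0.52 ± 0.11) and the kinase Txk (-0.45 ± 0.11) fell, and Plcg1 fell by its brightest probe set (-0.44 ± 0.11) with the opposite sign, not called, in the mean of its probe sets. Cd3e (0.13 ± 0.10), Cd8a (-0.18 ± 0.12) and Lat (-0.30 ± 0.10) did not pass. Without the untreated Nrdp1-/- array 3 of the ion channel and calcium genes and 0 of the receptor complex genes fell. Without the intensity trend 0 of the receptor complex genes rose and 0 fell.

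Few genes of degradation, glycans, chromatin and the cytoskeleton fell, with shares of 15.6% in the autophagy, 12.8% in the glycan, 10.5% in the lysosome, 9.09% in the cytoskeleton and 5.26% in the chromatin list, the last close to the 5.49% over all genes. Of 32 autophagy genes 5 fell and 0 rose: Atg9a (-0.81 ± 0.18), Atg2a (-0.59 ± 0.15), Atg4a (-0.58 ± 0.11), Atg14 (-0.57 ± 0.12) and Ulk2 (-0.47 ± 0.12). Of 38 lysosomal genes 4 fell, among them Ctsd (-0.52 ± 0.11) and Lipa (-0.45 ± 0.11), and 0 rose. Of 39 sialyltransferase and glycan genes 5 fell and 2 rose, with St6galnac4 (219 and 306 untreated and 791 and 955 at 4 h), which caps core glycans with sialic acid, risen while St8sia6 and St8sia4 (-0.48 ± 0.11) fell. Of 57 chromatin genes 8 rose and 3 fell. The demethylase Kdm6b rose (1.08 ± 0.11) and its relative Kdm6a fell (-0.53 ± 0.12), while the arginine methyltransferases Prmt1 (0.76 ± 0.13), Prmt3 (0.85 ± 0.12) and Prmt7 (0.78 ± 0.17) rose together. Of 55 cytoskeletal genes Marcksl1 rose (1.87 ± 0.20) and 5 fell, including Tubb2a (-0.88 ± 0.12) and Stmn1 (-0.50 ± 0.12), while Actb read 30228 and 32380 untreated and 29052 and 35307 at 4 h and did not pass. Without the intensity trend, 0 autophagy, lysosomal, cAMP, homing, Kruppel-like and mitotic genes and 1 naive-state gene were called fallen, and without the untreated Nrdp1-/- array 5 cAMP, 2 homing, 1 Kruppel-like, 3 mitotic, 3 autophagy, 1 lysosomal, 2 glycan, 2 cytoskeletal and 0 chromatin genes were.

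Of the 199 genes that rose at least 2-fold in both pairs 75 belong to none of the lists. Mir155hg, the host transcript of miR-155, is one of the 20 leading genes and read 73.4 and 109 untreated and 775 and 969.7 at 4 h, with changes of 3.32 and 3.10. Its mature product is required for normal CD8+ T cell responses and was not measured by this array. The RefSeq sequence on the plus strand of GRCm38.p6, printed with its seed (bases 2 to 8) in capitals, is at chr16:84714143-84714165.
mmu-miR-155-5p: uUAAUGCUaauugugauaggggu
Lad1, a filament-anchoring protein, read 95.2 and 97.1 untreated and 1303 and 1143 at 4 h and separated the conditions as clearly. Several RNA-modifying enzymes were among the 75: the tRNA methyltransferase genes Mettl1 (176 and 155 untreated and 829 and 845 at 4 h) and Trmt61a (1.37 ± 0.20), the pseudouridine synthase gene Pus7 (1.92 ± 0.13) and the cytosine methyltransferase gene Nsun2 (1.28 ± 0.12). Bysl (1.87 ± 0.16), Tma16 (1.58 ± 0.16), Ccdc86 (1.30 ± 0.17), Znhit6 (1.16 ± 0.14) and Pa2g4 (1.19 ± 0.11) are further nucleolar or ribosome-linked genes, and Pprc1, a coactivator of mitochondrial biogenesis, changed by 1.15 ± 0.13. The zinc finger genes Hivep3 (660.4 and 1228 untreated and 5102 and 4140 at 4 h) and Hivep1 (1.08 ± 0.13) and Plagl1 (2.74 ± 0.25, at least 4.61-fold) rose too. Genes better known from myeloid cells stood among them: Acod1 (9.35 and 5.19 untreated and 46.8 and 452 at 4 h), Clec4e (24.5 and 66.8 untreated and 76.8 and 713 at 4 h), Clec7a (19.2 and 97.4 untreated and 44.1 and 381 at 4 h), Tlr6 (109.6 and 111 untreated and 224 and 454 at 4 h) and Ly6i (10.9 and 6.94 untreated and 54.4 and 85.9 at 4 h). All 5 had their highest value in stimulated Nrdp1-/- cells, the array pair with more myeloid marker signal. Of them 4, all but Tlr6, lay below the median in untreated wild-type cells. Acod1, Clec7a and Ly6i lay below it in wild-type cells at 4 h as well (median 66.9), so no wild-type rise is read from them. The part of myeloid cells was not tested. The genes of this paragraph other than Mir155hg and Lad1 were chosen after their values were seen.

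Other probe sets of the same genes mostly moved the same way. Of the 199 genes 84 have a further probe set above the dim limit, and in 74 of these every further probe set rose in both pairs. In 54 a further probe set rose at least 2-fold in both pairs. Of the 15 genes that fell 2-fold in both pairs, 5 have a further probe set, and in 4 of them one fell 2-fold in both pairs. Of all 797 called genes with a further probe set, 6 had one that went at least 2-fold the other way on average: Nat10, Acss1, Dele1, Tpcn1, Nfatc2 and Prag1. In Acss1 the brightest probe set read 3914 and 3945 untreated and 2600 and 2560 at 4 h and a dimmer one read 21.8 and 20.2 untreated and 59.7 and 77.8 at 4 h.

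Not all genes answered alike. Of the 199 genes 86 had the larger rise in the Nrdp1-/- pair, the pairs differed by more than 2-fold in 20, and the median difference in size was 0.27 on the log2 scale. Of the 20 leading genes 7 had the larger rise in the Nrdp1-/- pair, among them Iigp1 and Cd83. A genotype-by-stimulation term, fitted over 4 h and 8 h together with 1 untreated array of each genotype, was called for 24 of the tested genes (0.222%), 10 with the larger response in Nrdp1-/- cells and 14 with the smaller; it was called for 0 without the intensity trend and 5 with quantile normalization. It was called for 6 of the 199. In the other direction, 54 genes moved at least 2-fold up in one pair and down in the other at 4 h. Both 4 h signals lay above both untreated signals in 852 of the 867 risen genes, against 22.5% of all tested genes, and below them in 565 of the 594 fallen genes, against 29.0%. The call on these same arrays selects for such separation.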

How the data were processed

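RNA of splenic CD8+ T cells, described as naive, was hybridised to Affymetrix whole-genome mouse arrays, 1 array for each of 6 samples. The authors deposited MAS5 intensities, linear and with a trimmed mean (2% at each end) of 500 on every array; MAS5 is named in the submitters' processing notes, with no version. Of 45101 probe sets, 64 controls, 932 naming several genes and 9160 without a listed gene were left out, and symbols come from GEO's platform annotation, 34741 of 34945 matched by Entrez identifier to RefSeq with 0 updates. For each gene the probe set with the highest mean signal was used, kept where it reached the array median on at least 2 of 6 arrays.

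Signals were transformed as log2(signal + 4.449), the pseudocount being the 10th percentile of all values, so changes of dim genes are understated. The model log2 signal on time (untreated, 4 h, 8 h) plus genotype was fitted over all 6 arrays with limma 3.58.1 in R 4.3.3 (lmFit, eBayes with an intensity trend, Benjamini-Hochberg, 0.05), leaving 2 residual and 8.96 prior degrees of freedom. Its 4 h term is the mean of both pair differences, given as log2 change ± standard error. Genotype is the block that pairs the samples, since each group has 1 array; no other replicate numbers exist. The genotype-by-stimulation model leaves 1 residual degree of freedom. A value below the array median on both arrays of a condition is called dim, and a fold is then given as "at least", against the array medians. With 1 array per group, the number of arrays limits the precision. In simulated data with 100 genes changed by 1 and 100 by 2 on the log2 scale, 85 and 92 were called, with 12 of the unchanged genes. The simulated noise followed the fitted intensity trend exactly, with no spread particular to a gene and no genotype effect. These counts therefore do not show how the calls fare where the trend does not hold.

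The genes named are those leading the changes in both pairs, up to 5 called members per list and direction, genes with opposite pairs or disagreeing probe sets and textbook markers, with some that did not pass shown for contrast. The members and all 75 lists were chosen with earlier results of these data known; 1 of the lists is not reported here. Alternatives were quantile normalization, median centring, other pseudocounts, filters and probe set rules, no intensity trend, the 4 arrays alone, no genotype term and each array left out. Python 3.11.15 with pandas 2.3.3, numpy 2.4.6 and matplotlib 3.10.9 made the tables and figures. The extraction text of the labels names whole colon, which does not match the labelled cells.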

Additional observations from a re-analysis of the deposited data

Results flagged for a closer look

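The genotype-by-stimulation term over 4 h and 8 h was called for 24 genes (limma, adjusted p at most 0.05). The untreated condition has 1 array of each genotype and the model 1 residual degree of freedom, and 0 genes were called without the intensity trend and 5 with quantile normalization. Values are given as the Nrdp1-/- minus the Nrdp1+/+ response on the log2 scale. The response was larger in Nrdp1-/- cells for the chemokine genes Ccl1 (5.693) and Cxcl10 (1.770), for Gbp2b (4.662), Lif (3.857), Sema7a (2.162), Irf8 (1.266), Slc25a40 (1.094), Zfas1 (1.066), Irak1 (0.992) and Nkg7 (0.988). Of these Cxcl10, Sema7a and Irf8 rose at 4 h in both pairs, whereas for Gbp2b both wild-type values lay below the array medians (28.9 untreated and 4.18 at 4 h), so that no direction is read from them, against 884.5 and 9598 in Nrdp1-/- cells. Ccl1 read 72.9 and 29.6 in wild-type and 6.41 and 273.9 in Nrdp1-/- cells, below the medians on the wild-type 4 h and the untreated Nrdp1-/- array. The response was smaller in Nrdp1-/- cells for Ccl3 (-1.091), Tnfsf11 (-2.655), Nme1 (-1.784) and Fabp5 (-1.196), which rose at 4 h in both pairs, and for Lpl (-3.069). It was also smaller for the myeloid genes Lyz1 (-1.473), Lyz2 (-1.665) and Mpeg1 (-1.962), the immunoglobulin genes Igha (-1.480) and Igkv8-30 (-1.004), and Rpl39 (-4.195), Pmf1 (-2.241), 2610316D01Rik (-2.059) and Tubgcp5 (-1.141). Rpl39 read 40.6 and 195.8 in wild-type and 266.1 and 26.4 in Nrdp1-/- cells, below the medians on the untreated wild-type and the Nrdp1-/- 4 h array. The untreated values of Tnfsf11 lay below the medians in both genotypes.

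In 54 genes the pairs went at least 2-fold in opposite directions at 4 h. The 6 below rank highest by the smaller of their 2 pair changes, not by the distance between the pairs. They were ranked among genes at or above the array median on at least 1 array of each pair. Values are the Nrdp1-/- minus the wild-type change. Cysrt1 differed by 5.873 (-3.087 in the wild-type and 2.786 in the Nrdp1-/- pair), Pllp by 5.726 (-3.328 and 2.399), Diras1 by 5.722 (-2.580 and 3.142) and Ankrd9 by 5.703 (-2.651 and 3.052). Cdc42bpa differed by -5.366 (2.554 and -2.811) and Rcor2 by -4.438 (2.224 and -2.214). In each of the 6 genes 2 of the 4 arrays lay below their medians. These differences were not tested at 4 h alone, where each rests on 4 arrays, and the genotype-by-stimulation term called none of the 6 genes.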

How the results depend on the processing

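The 199 genes risen at least 2-fold in both pairs numbered 166 to 229 under the alternatives run for them, and the 867 risen genes stayed within 1.5 times of that count except without the intensity trend (82), without the genotype block (374) and over the arrays left out in turn (573 to 1070). The 594 fallen genes became 387 with median centring, 301 with the mean of probe sets, 4 without the intensity trend, 91 without the genotype block and 1012 with the 4 arrays alone, and ranged from 215 to 942 over the arrays left out. The lowest counts came without the untreated Nrdp1-/- array and the highest without the wild-type 8 h array. The 15 genes fallen 2-fold in both pairs became 9 with the larger pseudocount, 8 with the stricter filter and 39 without the test. The 24 genes of the genotype-by-stimulation term became 0 without the intensity trend and 5 with quantile normalization. The 556 called list genes became 60 without the intensity trend and 247 without the genotype block (no replicate block), and 342 to 672 over the arrays left out. Of 354 named called genes, 53 were called without the trend, 166 without the genotype block and 238 with the mean of probe sets. That mean reversed the sign of 10: Nat10 (-0.351), Prag1 (-0.186), Atp2a2 (-0.075), Acss1 (0.177), Dele1 (0.396), Plcg1 (0.079), Stat5b (0.141), Tob1 (0.576), Slc2a3 (0.127) and Abca1 (0.474), none of them called there. No named gene reversed under another alternative. The causes were not tested. With 1 array per group, each group's own spread cannot be measured.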
